A study of Mus musculus with 6 samples.

Results

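The collagen genes, those whose mouse symbol is Col, a number, a and a number, were followed in 4434 melanoma cells with and without partial reprogramming. Members were all probe sets that the array annotation assigns to exactly 1 such gene. They came to 82 probe sets of 42 genes, among 34945 probe sets of 1 gene and 18193 genes in all. The family was divided by what its proteins build into 11 fibrillar, 6 basement membrane, 5 beaded filament, 4 transmembrane and 16 other collagen genes. Col6a6 and Col28a1, which RefSeq also lists, had no such probe set and were not analysed here.

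4434 is a mouse melanoma cell line with mutant Braf. All cells of both groups carried an inducible lentiviral vector for Oct4, Sox2, Klf4 and blasticidin resistance together with a vector for the doxycycline-dependent transactivator coupled to mCherry. The + dox cells received doxycycline and, according to the methods, blasticidin selection in reprogramming medium, while the − dox cells held both vectors without doxycycline. Whether the − dox cells shared the medium or the selection is not given in the sources used here, so doxycycline, selection and the 3 factors cannot be told apart. Total RNA of day 20 was hybridised to 3 arrays per group. The methods speak of independent experiments in general but do not say that these arrays came from separate cultures, and the p-values therefore cover the spread between arrays, which may be technical. In bulk RNA, fewer cells that express a gene and less RNA per cell cannot be told apart.

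Collagens are secreted or membrane-bound proteins in which 3 chains wind into a triple helix. Fibrillar collagens pack into the fibres that give connective tissue its strength, whereas type IV collagen forms the sheet-like network of basement membranes, on which melanocytes sit in the skin. Type VI collagen builds beaded microfilaments around cells, and the transmembrane collagens are anchored in the cell surface and can be shed from it. Chains are hydroxylated and folded in the endoplasmic reticulum with dedicated chaperones, trimmed outside the cell by procollagen proteinases and cross-linked by lysyl oxidases.

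Sequence at or before the start site is shown for 4 of the 5 collagen genes found lower in + dox cells, each 5′ to 3′ on the strand of its gene unless stated, from RefSeq with build GRCm38.p6. Col4a1 and Col4a2 lie head to head, and their annotated transcripts share a 22-base stretch at their starts at chr8:11312805-11312826, given on the plus strand, the strand of Col4a2. The capitals mark a GC box. For Col13a1 (chr10:61979109-61979358, minus strand) the capitals mark the letters of a TATA box motif, 237 bases before the start. For the upstream start of Col18a1 (chr10:77166531-77166780, minus strand) they mark 3 GC boxes and 1 CCAAT box, all read on the reverse strand.
Col4a1 and Col4a2 shared start: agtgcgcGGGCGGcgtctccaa
Col13a1: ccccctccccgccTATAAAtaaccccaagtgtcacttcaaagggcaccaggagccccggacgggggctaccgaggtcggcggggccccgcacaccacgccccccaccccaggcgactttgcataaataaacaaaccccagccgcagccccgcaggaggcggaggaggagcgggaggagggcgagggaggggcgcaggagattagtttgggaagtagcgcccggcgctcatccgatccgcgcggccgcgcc
Col18a1: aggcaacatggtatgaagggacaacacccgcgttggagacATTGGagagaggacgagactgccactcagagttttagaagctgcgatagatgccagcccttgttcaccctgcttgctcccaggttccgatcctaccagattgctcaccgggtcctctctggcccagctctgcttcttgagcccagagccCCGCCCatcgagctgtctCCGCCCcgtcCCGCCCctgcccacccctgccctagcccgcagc

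These motifs were searched by their letters on both strands in the 250 bases before each start, and a match is a description of the letters only. The stretch shared by Col4a1 and Col4a2 lies after both starts, so its GC box was marked separately and is not counted below. In the 250-base windows, Col4a1 held 0 GC boxes and Col4a2 held 2. The GC box GGGCGG was found in 58.3% of 36 collagen windows, from 33 genes, and in 32.7% of all 32851 RefSeq windows. The CCAAT box was found in 36.1% of the collagen windows and 33.8% of all windows, the TATA box TATAAA in 13.9% and 12.4%, and the AP-1 site TGACTCA in 2.78% and 4.46%. The Col13a1 window held the TATA box motif but no GC box, CCAAT box or AP-1 site in these letters. The window before the other Col18a1 start (chr10:77113706-77113955, minus strand), not shown, held none of these motifs.

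The arrays were similar in overall level, with medians from 5.33 to 5.37 on the log2 scale. Lower quartiles were 3.84 to 3.90. A first principal component with 63.2% of the variance separated the groups, but + dox 1 (10.5) lay nearer to the − dox arrays (−39.6 to −30.7) than + dox 2 (41.9) and + dox 3 (54.4) did. Array − dox 1 stood apart from the other − dox arrays on the next component.

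Comparing + dox with − dox cells asks which collagen genes differ after partial reprogramming. Of 42 collagen genes 5 were lower in + dox cells and 0 were higher by limma with Benjamini-Hochberg adjustment over all 18193 genes at a threshold of 0.05. The 5 genes were Col4a1 and Col4a2, the main basement membrane chains, Col6a2 of the beaded filaments, the transmembrane Col13a1 and Col18a1, the source of endostatin. They make up 11.9% of the collagen genes, where 1.80% of all genes were called lower and 3.07% were called higher. At an unadjusted p under 0.05, 12 collagen genes were lower and 3 were higher, or 28.6% and 7.14%, where 10.6% and 11.1% of all genes were.

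The family as a whole lay close to the other genes. The median change, + dox minus − dox on the log2 scale, was −0.05 over the collagen genes and 0.01 over all genes, and 25 collagen genes had a negative and 17 a positive change. Medians by class were −0.10 for fibrillar, −0.08 for basement membrane, −0.06 for beaded filament, −0.44 for transmembrane and 0.005 for other collagens. In 11 genes every + dox array lay under every − dox array, or 26.2% of the family against 12.6% of all genes. In 4 genes every + dox array lay above, or 9.52% against 14.3%.

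Signal level divided the members. The 22 collagen genes with a mean over the mean array median had a median change of −0.27, and 4 of them were called lower, whereas 2.66% of all genes that bright were. The other 20 collagen genes had a median change of 0.02, with 1 called lower, or 5%, where 0.41% of all genes that dim were. Over all genes the median change was −0.02 for the bright and 0.03 for the dim ones. In all 6 arrays 18 of the 42 collagen genes lay under the array median. The arrays give no detection calls, so a low value cannot be told apart from no expression.

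**Figure D1:**
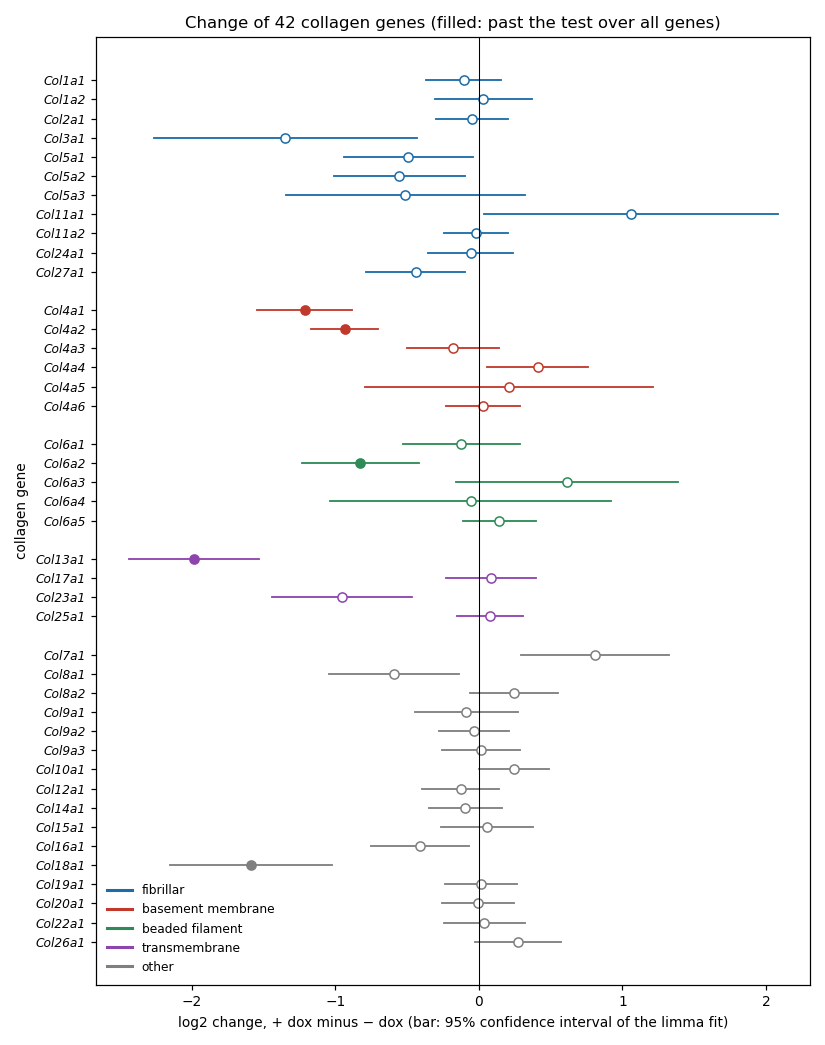
Change of each of 42 collagen genes on the log2 scale, + dox minus − dox (x axis), by gene and class (y axis); bars are 95% confidence intervals of the limma fit from 3 arrays per group and filled points passed the test over all genes. The 5 filled points all lie left of 0, with Col13a1 at −1.98 as the lowest of the family.

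Col4a1 and Col4a2 encode the chains of the common type IV collagen heterotrimer. Col4a1 stood at 11.27, 10.83 and 10.95 in + dox arrays 1, 2 and 3, and at 12.18, 12.16 and 12.34 in − dox arrays 1, 2 and 3. All + dox values lay at least 0.89 under the − dox values, and the groups differed by −1.21 (SE 0.14, 95% confidence interval −1.54 to −0.88, 2.31-fold lower, limma adjusted p = 0.0102). Its other probe set read 9.68, 9.21 and 9.10 in + dox and 10.92, 10.79 and 10.81 in − dox arrays, a change of −1.51 (adjusted p over all probe sets 0.0107). Both probe sets of Col4a1 thus separated the groups.

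Col4a2 was measured by 1 probe set and stood at 10.22, 10.01 and 10.03 in + dox and at 11.01, 11 and 11.05 in − dox arrays. The − dox arrays lay within 0.05 of each other and the + dox arrays 0.78 or more beneath them. The change was −0.93 (SE 0.10, 95% confidence interval −1.17 to −0.70, 1.91-fold lower, limma adjusted p = 0.00764).

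Both calls were lost when single arrays were left out. Col4a1 missed the threshold without + dox 3 (adjusted p = 0.0581), − dox 2 (0.0536) or − dox 3 (0.0620), and Col4a2 missed it without − dox 2 (0.0502) or − dox 3 (0.0537). With 1 array of + dox 2, + dox 3, − dox 2 or − dox 3 removed, 24 to 32 of all 18193 genes were called lower.

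The other type IV chains did not pass the test. Col4a5, whose chain joins those of Col4a3 and Col4a4 in kidney and lens basement membranes or that of Col4a6 in other tissues, stood at 8.58, 9.24 and 8.55 in + dox and 9.53, 8.12 and 8.09 in − dox arrays. The groups overlapped, with − dox 1 highest, and the change was 0.21 (SE 0.42, adjusted p = 0.837). Col4a3 (−0.18), Col4a4 (0.41) and Col4a6 (0.03) lay under the array median in all arrays. These chains, too, are encoded by neighbouring pairs, Col4a3 with Col4a4 and Col4a5 with Col4a6, and neither pair showed a call.

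Col13a1 encodes a transmembrane collagen of cell adhesion sites and the neuromuscular junction. It read 4.34, 4.35 and 4.28 in + dox and 6.52, 5.87 and 6.53 in − dox arrays. Every + dox value fell under the array median and every − dox value over it, with a gap of 1.52 between the groups. The change was −1.98 (SE 0.19, 95% confidence interval −2.44 to −1.53, limma adjusted p = 0.00561), 3.95-fold on this scale, from 1 probe set. Col13a1 was the 1 collagen gene that passed whichever array was left out, with changes between −2.20 and −1.87 and an adjusted p of at most 0.0373.

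Col23a1, another transmembrane collagen, lay near the bottom of the scale and just missed the threshold. Its values were 3.90, 4.16 and 4.14 in + dox and 5.24, 4.57 and 5.24 in − dox arrays, with no overlap and a change of −0.95 (SE 0.20, limma adjusted p = 0.0524). Both other probe sets of Col23a1 changed by −0.58 without overlap, also under the array median. It passed with trend and robust settings of the fit (adjusted p = 0.0444) and without − dox 2 (−1.17, adjusted p = 0.0343). Col17a1, the hemidesmosome collagen of basal keratinocytes, had 0.09 at values of 3.23 to 3.67.

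Col25a1, a transmembrane collagen of neurons, read 6.70, 6.59 and 6.52 in + dox and 6.50, 6.60 and 6.47 in − dox arrays. The groups overlapped and the change was 0.08 (SE 0.10, adjusted p = 0.704).

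Col18a1 encodes a multiplexin, a collagen with an interrupted helix that carries heparan sulfate in basement membranes. It stood at 8.74, 7.96 and 7.94 in + dox and 10, 9.69 and 9.71 in − dox arrays. The − dox arrays were all higher, and among the + dox arrays + dox 1 lay nearest to them. The change was −1.59 (SE 0.23, 95% confidence interval −2.15 to −1.02, 3.0-fold lower, limma adjusted p = 0.0202). Its other probe set read 8.41, 7.76 and 7.41 in + dox and 10.27, 9.52 and 9.49 in − dox arrays, a change of −1.90 (adjusted p over probe sets 0.0308). Col18a1 missed the threshold without + dox 2, + dox 3, − dox 2 or − dox 3, with adjusted p from 0.0789 to 0.0887. The related multiplexin Col15a1 had 0.06 at values under the array median.

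**Figure D2:**
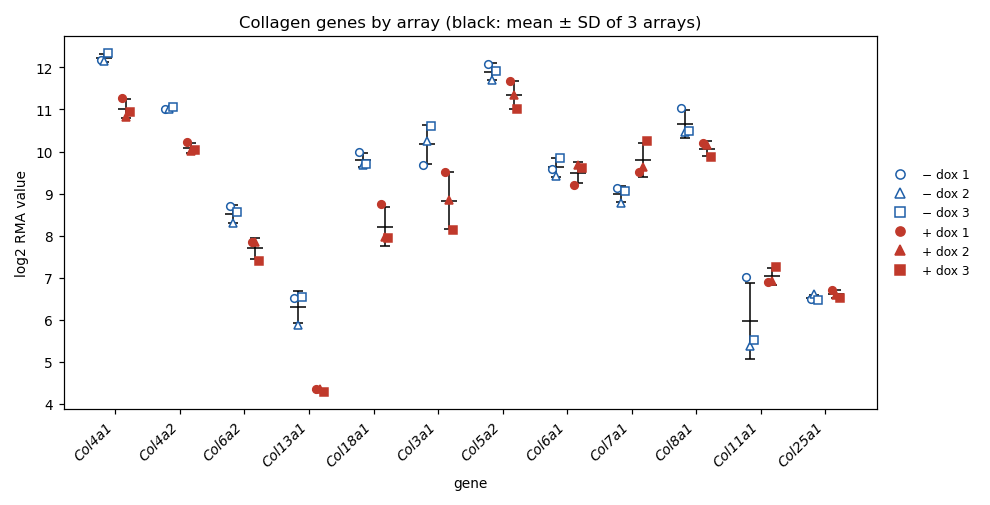
Log2 RMA value (y axis) of 12 collagen genes (x axis) in each array, with open blue symbols for − dox and filled red symbols for + dox, and black marks for the mean ± SD of 3 arrays. The + dox arrays span 4.28 to 4.35 for Col13a1 and the − dox arrays 5.87 to 6.53, while Col6a1 and Col25a1 overlap between the groups.

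Type VI collagen is assembled from the chains of Col6a1 and Col6a2 with that of Col6a3 or of its relatives Col6a4 and Col6a5. Col6a2 read 7.85, 7.84 and 7.40 in + dox and 8.71, 8.29 and 8.56 in − dox arrays, without overlap. The change was −0.82 (SE 0.17, 95% confidence interval −1.23 to −0.41, 1.77-fold lower, limma adjusted p = 0.0483). This call was the weakest of the family. In the fit over probe sets the same values gave an adjusted p of 0.0551, the other Col6a2 probe set changed by −0.41 (adjusted p = 0.235), and the call was lost when any array but + dox 1 was left out (adjusted p up to 0.165).

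Col6a1, the neighbour of Col6a2 in the genome, did not separate the groups, at 9.21, 9.69 and 9.60 in + dox and 9.59, 9.42 and 9.85 in − dox arrays (−0.12, SE 0.17, adjusted p = 0.760). Col6a3 read 5.41, 5.99 and 6.78 in + dox and 5.54, 5.44 and 5.36 in − dox arrays, a change of 0.61 (SE 0.32, adjusted p = 0.342) in which + dox 1 lay among the − dox arrays. Col6a4 (−0.06) overlapped between the groups, with + dox 1 lowest at 6.96, and Col6a5 (0.14) lay under the lower quartile in both groups.

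No fibrillar collagen passed the test at 3 arrays per group by limma. At an unadjusted p under 0.05 were 5 of 11, a limit that 21.7% of all genes met. Of these 4 were lower and 1 was higher, or 36.4% and 9.09%, where 10.6% and 11.1% of all genes were. Col1a1 and Col1a2, the chains of type I collagen that is the bulk of skin and bone matrix, lay under the array median in all arrays and with every probe set. Their changes were −0.10 and 0.03. Col2a1 of cartilage (−0.05), Col11a2 (−0.02) and Col24a1 (−0.06) were also under the array median throughout.

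The bright fibrillar genes were type III and type V. Col3a1, which forms fine fibres in skin and vessels, read 9.51, 8.84 and 8.14 in + dox and 9.68, 10.25 and 10.60 in − dox arrays. The groups did not overlap but + dox 1 and − dox 1 lay 0.17 apart, and the change of −1.35 (SE 0.38, adjusted p = 0.102) missed the threshold. Without + dox 1 it was −1.69 (adjusted p = 0.0375), where 3.83% of all genes were called lower and 5.24% higher. The dimmer Col3a1 probe set had −0.75 with overlapping groups.

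Col5a2, a chain of the type V collagen that sets the width of fibres and a genomic neighbour of Col3a1, read 11.68, 11.35 and 11.02 in + dox and 12.09, 11.70 and 11.92 in − dox arrays. The gap between the groups was 0.02 and the change −0.55 (SE 0.19, adjusted p = 0.156). Its partner Col5a1 had −0.49 (SE 0.19, adjusted p = 0.194) by its brightest probe set, whereas 2 other probe sets had 0.23 and 0.31, so Col5a1 has no settled direction; without + dox 1 the brightest had −0.70 (adjusted p = 0.0200). Col5a3 had −0.51 (SE 0.35) and Col27a1 −0.44 (adjusted p = 0.137).

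Col11a1, the cartilage fibril collagen often found in tumour stroma, was the 1 member with a positive change over 1. It read 6.89, 6.93 and 7.26 in + dox and 7.01, 5.37 and 5.52 in − dox arrays. Array − dox 1 lay among the + dox arrays, while − dox 2 and − dox 3 lay beneath them, and the change was 1.06 (SE 0.43, adjusted p = 0.215). Its other probe set showed the same order, with 6.76 in − dox 1 against 4.37 and 4.75 in − dox 2 and − dox 3. Without − dox 1 the change was 1.58 (adjusted p = 0.00639), where 3.94% of all genes were called higher.

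Among the remaining collagens, Col7a1 and Col8a1 were bright. Col7a1 forms the anchoring fibrils that tie epidermal basement membrane to dermis. It read 9.52, 9.63 and 10.26 in + dox and 9.13, 8.78 and 9.07 in − dox arrays, all + dox values being higher, with a change of 0.81 (SE 0.21, adjusted p = 0.0873). Col8a1, a short-chain network collagen of vessels and the cornea, read 10.20, 10.15 and 9.86 in + dox and 11.04, 10.46 and 10.48 in − dox arrays (−0.59, SE 0.19, adjusted p = 0.133). Neither passed the test.

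Of the other members, Col16a1, which links to fibres and basement membranes, had −0.41 without overlap (adjusted p = 0.161). Col10a1 of growth plate cartilage (0.24) and Col26a1 (0.27) had + dox arrays above all − dox arrays at dim values and were not called. The remaining 10 genes, Col8a2, Col9a1, Col9a2, Col9a3, Col12a1, Col14a1, Col19a1, Col20a1, Col22a1 and Col15a1, had changes between −0.13 and 0.25 with overlapping groups.

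Over single probe sets, 6 of 82 were lower in + dox cells and 0 were higher (limma adjusted over 34945 probe sets), where 1.31% of all probe sets were lower. They were 2 of Col4a1, 1 of Col4a2, 1 of Col13a1 and 2 of Col18a1. For 27 genes more than 1 probe set was measured.

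**Figure D3:**
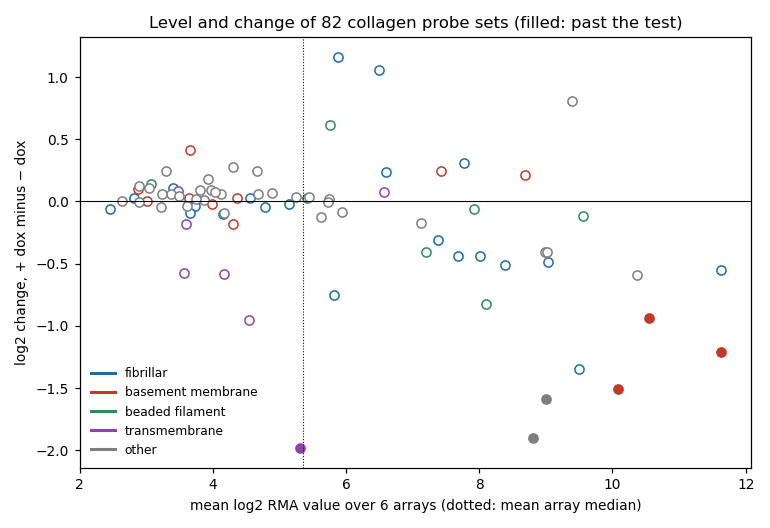
Change of 82 collagen probe sets on the log2 scale, + dox minus − dox (y axis), against their mean log2 RMA value over 6 arrays (x axis), coloured by class, filled where past the test over all probe sets; the dotted line is the mean array median. All 6 filled probe sets have negative changes, and most probe sets left of the line lie near 0.

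The mean deviation of the 5 called genes from their − dox mean was −1.09, −1.38 and −1.45 in + dox arrays 1, 2 and 3. In the − dox arrays it was 0.11, −0.17 and 0.06. Without both arrays numbered 1, 12 collagen genes passed, 8 lower and 4 higher, where 9.79% of all genes were called lower and 10.3% higher. The higher genes were Col11a1 (1.65), Col7a1 (1.02), Col6a3 (0.99) and Col6a4 (0.61), and Col3a1 (−1.94), Col5a1 (−0.68) and Col5a2 (−0.63) were added to the lower ones.

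Genes that work with collagens gave 4 higher and 1 lower call among 63 measured, or 6.35% and 1.59% against the 3.07% and 1.80% of all genes, with a median change of 0.03. The lower call was thus no more than the background share. In procollagen processing and cross-linking, 2 of 11 genes were higher and 1 was lower. Loxl4, a lysyl oxidase that cross-links collagen, read 9.44, 9.86 and 10.18 in + dox and 7.48, 7.16 and 6.99 in − dox arrays. All + dox arrays were higher, and the change was 2.62 (SE 0.22, 6.13-fold higher, limma adjusted p = 0.00317), and 1.90 by its other probe set. Loxl4 passed whichever array was left out.

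Pcolce and Pcolce2 encode enhancers of the proteinase that trims procollagen ends, and they changed in opposite directions. Pcolce2 read 11.26, 12.47 and 12.54 in + dox and 9.42, 9.72 and 9.38 in − dox arrays (2.58, SE 0.34, 5.99-fold higher, limma adjusted p = 0.0158). Pcolce read 10.57, 9.87 and 9.98 in + dox and 11.39, 11.56 and 11.92 in − dox arrays (−1.48, SE 0.22, 2.80-fold lower, adjusted p = 0.0218), with −1.36 by its other probe set. In each case + dox 1 was the + dox array nearest to − dox. Leaving out + dox 2, + dox 3, − dox 2 or − dox 3 ended the calls of both genes, the highest adjusted p being 0.0811 for Pcolce2 and 0.0996 for Pcolce.

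Bmp1, the proteinase itself, read 8.45, 7.67 and 7.87 in + dox and 8.90, 8.93 and 9.06 in − dox arrays, with no overlap and a change of −0.97 (SE 0.20, limma adjusted p = 0.0502). It lay at the threshold. Without + dox 1 it passed (−1.19, adjusted p = 0.00470), where 3.83% of all genes were called lower. It also passed with the mean of its probe sets (−0.68, adjusted p = 0.0448) and with its most variable one (−1.10, adjusted p = 0.0247). Further passes came without the dimmest genes (adjusted p = 0.0436) and with quantile normalisation (0.0494) or median centring (0.0481). Bmp1 was not called with the replicate number as a block or with trend and robust settings. The threshold was also missed when any single array but + dox 1 was left out.

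Of 19 genes of collagen folding and modification 1 was higher and 0 were lower by limma, and the median was −0.14. Fkbp14, a prolyl isomerase of the endoplasmic reticulum that aids collagen folding, read 8.92, 8.84 and 8.62 in + dox and 7.26, 6.51 and 6.51 in − dox arrays (2.03, SE 0.22, 4.09-fold higher, limma adjusted p = 0.00903). A dim probe set of Fkbp14 had 0.08, and the mean of both probe sets gave 1.06. Leaving out + dox 2, − dox 2 or − dox 3 ended the call (highest adjusted p 0.0530). Serpinh1, the collagen chaperone Hsp47, was bright, at 11.42 to 11.66 in + dox against 11.80 to 12 in − dox arrays (−0.36, adjusted p = 0.119).

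Among 10 basement membrane partners, nidogens, perlecan, agrin, fibulins and other proteins that surround type IV collagen, Tinagl1 was the 1 gene called. It encodes a secreted basement membrane glycoprotein and read 9.58, 9.43 and 10.49 in + dox and 7.18, 7.44 and 7.31 in − dox arrays (2.52, SE 0.28, 5.75-fold higher, limma adjusted p = 0.00903). Leaving out − dox 2 or − dox 3 ended this call (highest adjusted p 0.0557). Its direction was opposite to those of Col4a1, Col4a2 and Col18a1, while Fbln2 had 0.36 (adjusted p = 0.143) and the list median was 0.06.

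The 9 collagen receptors and 14 fibril-associated proteoglycans and glycoproteins held 0 calls by limma, with 2 and 5 genes at an unadjusted p under 0.05, a limit that 21.7% of all genes met. Itgb1, the shared chain of the collagen-binding integrins, had 0.38 (adjusted p = 0.107), and 0.47 without − dox 1 (adjusted p = 0.0473). Itga2, one of its partners, had 0.34 (adjusted p = 0.169). Dcn, the fibre-binding proteoglycan decorin, had 0.85 (adjusted p = 0.0525) and passed without + dox 1 (1.01, adjusted p = 0.0190) and without the dimmest genes (adjusted p = 0.0470). Prelp had 0.38 (adjusted p = 0.0849). Of all genes 5.24% were called higher without + dox 1, 3.94% without − dox 1 and 4.57% without the dimmest genes.

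**Figure D4:**
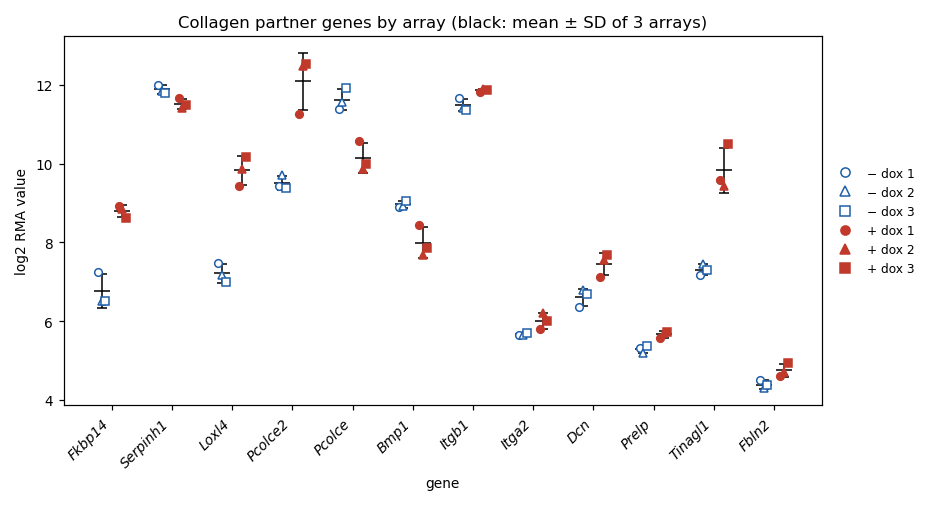
Log2 RMA value (y axis) of 12 genes that fold, process, bind or accompany collagens (x axis) in each array, with open blue symbols for − dox, filled red symbols for + dox and black marks for the mean ± SD of 3 arrays. Pcolce2 is higher and Pcolce lower in every + dox array, and Serpinh1 and Itgb1 differ by under 0.40.

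Collagens are made by many cell types, so marker genes of other cells were read beside them. Of 10 fibroblast markers 0 were called. The 8 that lay under the array median in all arrays had changes from 0.02 (Lum) to 0.38 (Fap). The summed level of the list ran from 10.2 to 10.6 in + dox cells and from 9.92 to 10.07 in − dox cells. It is mainly Prrx1, at 9.78 to 10.28 against 9.47 to 9.69 (0.38, limma adjusted p = 0.242), and Dcn had 0.85 (adjusted p = 0.0525). For endothelial markers 0 of 9 were called and 6 lay under the median (9.79 to 10.27 against 9.24 to 9.56). Their sum is mainly Eng, at 9.23 to 10.03 against 8.71 to 9.22 (0.52, adjusted p = 0.283). Tek had 1.61 (adjusted p = 0.219), with 7.01 in + dox 1 against 4.58 and 4.49 in + dox 2 and + dox 3. For immune markers 0 of 7 were called and 2 lay under the median (8.17 to 8.55 against 7.91 to 8.51). Cd74 had −0.50 (adjusted p = 0.106) and Itgam 1.17 (adjusted p = 0.301). Melanocyte markers, which should mark these cells, had 0 calls in 11 genes, and 8 lay under the median in all arrays, Tyr, Tyrp1, Dct and Mlana of the melanosome among them (8.42 to 8.61 against 8.52 to 9.07). Mitf, the melanocyte master regulator, had −0.76 (adjusted p = 0.343) and was over the array median in all arrays. Sox10 had 0.11 (adjusted p = 0.618).

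Of 7 keratinocyte markers Krt14 was called, at 8.21, 7.68 and 8.77 in + dox against 4.67, 4.47 and 4.50 in − dox arrays (3.67, limma adjusted p = 0.00173). Its other probe sets had 2.46 (adjusted p = 0.0195) and −0.11. The summed level of that list ran from 8.74 to 9.38 in + dox cells and from 7.66 to 7.92 in − dox cells. The difference in this sum is mainly Krt14. No other gene of the list was called, with changes from −0.15 (Trp63) to 0.55 (Krt10, limma adjusted p = 0.322), and 4 of its genes lay under the array median throughout. Of 8 smooth muscle and pericyte markers Cspg4 was higher (1.38, adjusted p = 0.0245) and Notch3 lower (−1.44, adjusted p = 0.0115), with summed levels of 10.6 to 10.97 against 10.16 to 10.46. The other probe set of Cspg4 had 1.06 (adjusted p = 0.0538) and that of Notch3 −0.19 with overlapping groups, and the mean of both Notch3 probe sets missed the threshold (−0.81, adjusted p = 0.0553). Krt14 passed whichever of the 6 arrays was left out, whereas Cspg4 and Notch3 missed the threshold without + dox 2, + dox 3, − dox 2 or − dox 3, the highest adjusted p being 0.108 and 0.0628. The part of these differences in the collagen values was not tested.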

How the data were processed

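The deposited values are log2 expression levels of 6 Affymetrix whole-genome mouse arrays, 3 of + dox and 3 of − dox cells. The authors ran RMA on the scanner files in Chipster (background correction, equal distributions, a summary per probe set), whose version was not given in the sources used here. RMA assumes like distributions in all arrays. The table held 45101 probe sets without missing values. Precision is limited by the number of arrays.

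Probe sets of exactly 1 gene (34945) were named from the platform annotation, 932 with several genes, 9160 with none listed and 64 controls being left out. Each of 18193 genes was represented by its probe set of highest mean. A two-sided test of + dox against − dox was fitted with limma 3.58.1 (lmFit, eBayes; R 4.3.3), with no term but the group. P-values were adjusted after Benjamini-Hochberg across the 18193 genes, with a threshold of 0.05, and a second fit covered single probe sets. A summed level is the log2 of the summed linear values of a list. Levels of different probe sets cannot be ranked.

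Members, gene lists and alternatives were chosen with earlier results of these data known. Named were collagens past either test, those with a change of at least 1 on the log2 scale, Col4a1, Col13a1 and the 2 with the highest mean per class, and other collagens with their change; of each partner or marker list, up to 4 called genes or the 2 with the smallest p. Bmp1 was chosen after its values were seen. Alternatives covered the choice of probe set, dim genes, eBayes settings, scaling, a replicate block and left-out arrays.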

Additional observations from a re-analysis of the deposited data

How the results depend on the processing

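The 5 collagen calls became 1 to 7 and the 6 probe set calls 1 to 9 when 1 array was left out, the median change ranged from −0.06 to −0.03, and the 5 partner calls became 1 to 8. Leaving out both arrays numbered 1 gave 12 collagen genes, 17 collagen probe sets and 19 of 63 partner genes. In that setting 9.79% of all genes were called lower and 10.3% higher, and the share over all probe sets was not counted. Over all genes, 697 were called lower and 953 higher without + dox 1, and 424 and 716 without − dox 1. Without the dimmest 40% of genes the collagen median was −0.27, over fewer genes, Col13a1 not among them. Deviations of arrays with the same number correlated at −0.12, −0.22 and 0.08, and those of arrays with different numbers from −0.35 to 0.34. With 3 arrays per group these values cannot show whether the numbers pair the arrays. With the replicate number as a block, 4 collagen genes, 6 probe sets and 4 partner genes passed, Col6a2 (adjusted p = 0.101), Pcolce (0.0751) and the markers Cspg4 (0.0876) and Notch3 (0.0526) losing their calls, and calls over all genes went from 328 to 98 lower and from 558 to 205 higher. Col6a2 also missed the threshold with the mean of its probe sets (−0.62, adjusted p = 0.0914), with its most variable probe set (0.0537), with trend and robust settings (0.0591) and with median centring (0.0524). Among the genes followed singly under the alternatives, signs turned for Col25a1, to −0.05 with the mean of its probe sets and −0.18 with its most variable probe set. They also turned for Col6a1, to 0.025 without + dox 1 (lowest value with 1 array left out −0.22) and 0.01 without both arrays numbered 1. Neither gene was called, and the cause was not tested. Col6a4, not among these genes, went from −0.06 to 0.61 without both arrays numbered 1 and was called there (limma adjusted p = 0.0192). Of 237 values of single genes under the alternatives, 194 kept their direction and side of the threshold, 33 lost a call, 6 gained one and 4 turned.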
